A study of Homo sapiens with 4 samples.

Results

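The MCM family of A549 cells, a human lung adenocarcinoma line, was followed across siRNAs that target EPEL, a long noncoding RNA. The family comprised the helicase subunits MCM2, MCM3, MCM4, MCM5, MCM6 and MCM7, the related proteins MCM8, MCM9 and MCM10, and the MCM-binding protein MCMBP. Members were all probes of an Illumina HumanHT-12 BeadChip whose platform annotation names 1 of these 10 genes, 18 probes of 47228 (10 of 20046 named genes). There were 4 arrays. The control array held RNA of A549 cells given a non-targeting siRNA. The other 3 arrays held RNA of A549 cells given an siRNA against EPEL, a different siRNA on each array, called here siRNA 1, siRNA 2 and siRNA 3. Every siRNA was used at 50 nM, cells had fresh medium 4 h later, and the submitters checked the knockdown 48 h after transfection. The labels do not say that the wells came from separate cultures, so a p-value here measures only the spread between these samples, which also holds any difference between the siRNAs. No probe named EPEL (0 of 47228), so the knockdown itself was not analysed here.

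MCM2 to MCM7 form a ring that is loaded around DNA at replication origins in G1 phase by the origin recognition complex, CDC6 and CDT1. In S phase the ring joins CDC45 and the GINS complex to become the CMG helicase, which unwinds DNA ahead of the polymerases. MCM10 acts at the activation of this helicase, MCM8 and MCM9 form a separate helicase used in homologous recombination, and MCMBP binds MCM subunits and assists the assembly of new MCM complexes. The MCM genes are textbook targets of E2F transcription factors and are abundant in proliferating cells.

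The start sites of the helicase genes are shown first, because MCM genes are known E2F targets and EPEL takes its name from E2F-mediated cell proliferation. Promoter windows of RefSeq (build GRCh38.p14) matched 8 of the 10 members. MCM4 and MCM5 were not matched. For the 4 matched helicase subunits, 190 bases before and 20 bases after the gene start are printed 5′ to 3′, with matches to an E2F-type motif in capitals. The letters searched were TTTCCCGC, TTTGGCGC, TTTCGCGC and TTTGCCGC on both strands, and matches may overlap.
MCM2, chr3:127598221-127598430, forward strand: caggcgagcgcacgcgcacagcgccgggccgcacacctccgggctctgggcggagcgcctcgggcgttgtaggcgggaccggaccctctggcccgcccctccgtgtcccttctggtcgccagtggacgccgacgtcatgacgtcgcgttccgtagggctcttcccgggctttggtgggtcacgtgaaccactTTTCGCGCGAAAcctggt
MCM3, chr6:52284723-52284932, reverse strand: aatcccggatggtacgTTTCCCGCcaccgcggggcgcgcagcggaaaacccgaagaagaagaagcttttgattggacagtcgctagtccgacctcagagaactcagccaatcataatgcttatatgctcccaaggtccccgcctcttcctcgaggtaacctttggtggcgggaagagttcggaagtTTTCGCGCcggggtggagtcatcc
MCM6, chr2:135876424-135876633, reverse strand: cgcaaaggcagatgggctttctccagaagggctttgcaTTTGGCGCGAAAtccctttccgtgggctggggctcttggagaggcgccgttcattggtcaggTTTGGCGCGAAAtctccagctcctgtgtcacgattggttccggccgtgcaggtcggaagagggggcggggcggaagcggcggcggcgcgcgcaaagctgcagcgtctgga
MCM7, chr7:100101378-100101587, reverse strand: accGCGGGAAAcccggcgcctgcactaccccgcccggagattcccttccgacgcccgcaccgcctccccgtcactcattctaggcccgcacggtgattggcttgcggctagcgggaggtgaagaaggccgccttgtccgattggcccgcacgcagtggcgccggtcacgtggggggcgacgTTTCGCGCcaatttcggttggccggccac

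All 4 windows held at least 2 matches, and MCM6 held 4 because 2 copies of TTTGGCGCGAAA each match on both strands. In MCM2 the matches overlap as TTTCGCGCGAAA just after the start, at positions 3 to 10 and 7 to 14. MCM3 and MCM7 each had 1 match across or next to the start and 1 further upstream. For MCM7, which has 3 windows, the most upstream start is shown, and the other windows held 0 matches. Among all 35116 windows of 300 bases (250 before and 50 after the start), 3.31% held a match and 0.145% held at least 2. MCM8 had 1 match, after its start, and MCM9 and MCM10 had 0. MCMBP had 0 at its upstream start and 1 at its other start. The CCAAT letters, on either strand, stood in the windows of MCM3 (3 times), MCM6 (2), MCM10 (2), MCM8 (1) and MCM9 (1), in those of MCM7 (3 at the upstream start, 1 at each other start), and in 34.6% of all windows. The E-box letters CACGTG stood once each in MCM2, MCM7 and MCM8 and in 7.26% of all windows. A match of letters is a description and not a measured binding site.

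The raw bead signal, a linear intensity with no background subtraction, is given first for each helicase subunit. MCM7 gave 7771 on the control array, against 5587, 5555 and 6711 with siRNAs 1, 2 and 3. Its control signal lay above all 3 siEPEL signals. MCM6 gave 4071 on the control array, against 3245, 2883 and 3286 with siRNAs 1, 2 and 3. Again the control lay above every siEPEL array. MCM3, by its brighter probe, gave 4210 on the control array, against 3220, 3255 and 3506 with the siRNAs in the same order. The siEPEL signals of MCM3 were close together and all below the control. MCM2 gave 968 on the control array, against 837, 835 and 909 with siRNAs 1, 2 and 3. MCM5 gave 1204 on the control array, against 894, 828 and 1207 with siRNAs 1, 2 and 3. For MCM5 siRNA 3 lay close to the control, while siRNAs 1 and 2 lay lower. MCM4 gave 2540 on the control array, against 2247, 2066 and 2533 with siRNAs 1, 2 and 3, and siRNA 3 again lay close to the control. The mean raw signal over all probes was 404 on the control array, against 394, 381 and 387 on the others, so the ratios below come from normalized values.

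**Figure D1:**
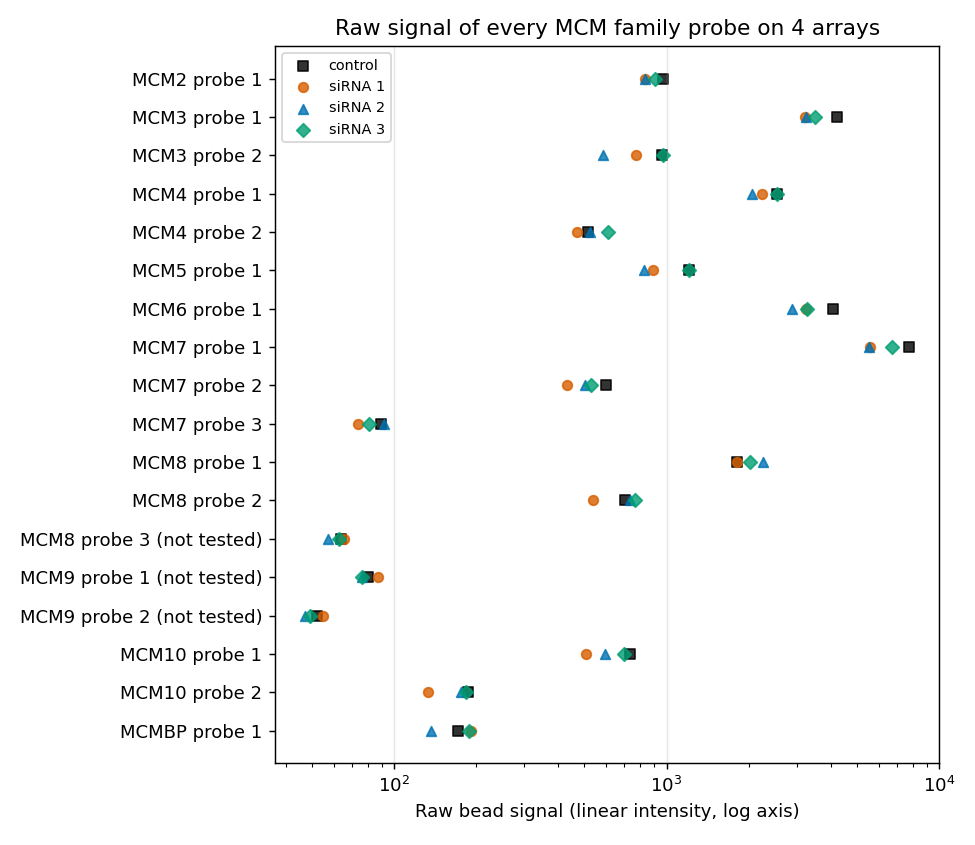
Raw bead signal (linear intensity on a log axis) of all 18 MCM family probes, with 1 marker for each of the 4 arrays and no error bars, since each array is a single sample. For MCM6 and the brightest MCM7 probe the control square lies to the right of all 3 siRNA markers, from 4071 and 7771 on the control array, while both MCM9 probes lie under 100.

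Values after background correction, quantile normalization and log2 are given here for the brightest probe of each subunit. By these probes MCM2, MCM3, MCM6 and MCM7 lay below the control array with all 3 siRNAs. MCM4 and MCM5 lay below it with siRNAs 1 and 2 only. None passed the test. Of the 10 tested probes of the 6 subunits, 5 lay below the control with all 3 siRNAs. For MCM7 the ratios to control were 0.725, 0.771 and 0.909 with siRNAs 1, 2 and 3, and limma gave a log2 difference between siEPEL and control of -0.33 ± 0.22 (SE). For MCM6 the ratios were 0.813, 0.761 and 0.849 (log2 difference -0.31 ± 0.20). For MCM3 they were 0.784, 0.832 and 0.879 (log2 difference -0.27 ± 0.20). The shift of MCM2 was smaller, with ratios of 0.890, 0.898 and 0.949 (log2 difference -0.13 ± 0.20). MCM5 stood at ratios of 0.758 and 0.709 with siRNAs 1 and 2 and of 1.01 with siRNA 3, and its log2 difference was -0.29 ± 0.25. Without siRNA 3 that difference was -0.45. MCM4 stood at ratios of 0.911, 0.872 and 1.04 (log2 difference -0.09 ± 0.21). That difference was -0.17 without siRNA 3, -0.04 without siRNA 2 and -0.0067 with the mean of its probes.

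Of the 15 member probes that entered the test, 0 passed an adjusted p of 0.05 in limma, against 0% of all 18200 tested probes. At an unadjusted p under 0.05 the members numbered 0, against 2.10% of all probes, and the smallest unadjusted p among them in limma was 0.161, for MCM6. The adjusted p of every member probe was 1.00. The 95% intervals below are not adjusted for the number of probes, so the adjusted test could also miss ratios outside them. For MCM7 the 95% interval of the siEPEL to control ratio ran from 0.566-fold to 1.13-fold, for MCM6 from 0.586-fold to 1.11-fold and for MCM2 from 0.666-fold to 1.25-fold. The fit takes the spread of the siEPEL arrays for that of the single control array, and a deviation of that array would move all ratios of a gene together.

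**Figure D2:**
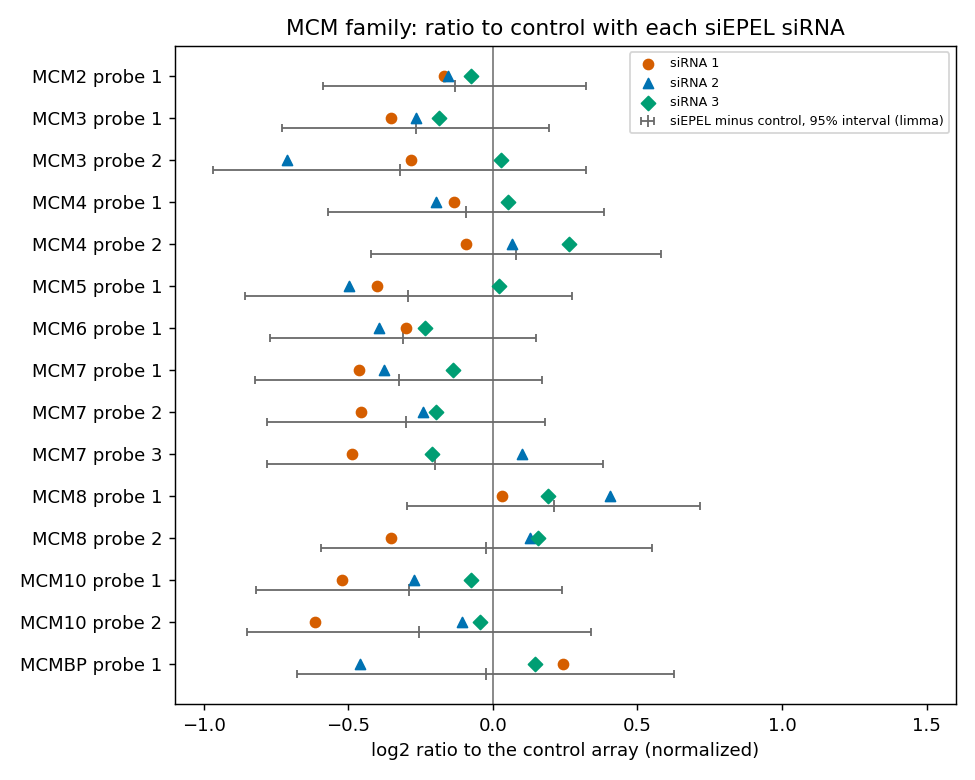
Normalized log2 ratio to the control array for the 15 tested MCM family probes (coloured markers, 1 per siRNA), with the limma estimate and its 95% interval drawn in grey under each. Every grey interval crosses 0, and siRNA 3 lies nearest to 0 for MCM5, MCM10 and the brightest MCM7 probe.

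The helicase as a group lay lower with siRNAs 1 and 2 than with siRNA 3. The median ratio of MCM2 to MCM7 to the control was 0.798 with siRNA 1, 0.801 with siRNA 2 and 0.929 with siRNA 3, against medians of all tested genes at 0.00 on the log2 scale with each. The mean of these medians was -0.25 ± 0.12 (SD, 3 siRNAs) on the log2 scale. All 6 subunits lay below the control with siRNA 1, all 6 with siRNA 2 and 4 with siRNA 3. By the brightest probe of each gene, all 3 ratios were below the control in 4 of 6 subunits and in 5 of the 9 member genes tested. The share among the 10921 genes tested was 20.3%. The 3 ratios of a gene share 1 control array and the subunits share all arrays, so these counts carry no test. At least 1.2-fold lower were 4 of 6 subunits with siRNA 1 (18.0% of all genes), 4 with siRNA 2 (16.4%) and 0 with siRNA 3 (11.4%).

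Among all tested genes, the subunits lay in the lower part of the distribution with siRNAs 1 and 2, without reaching its end. With siRNA 1, MCM7 had the lowest ratio of the helicase subunits, with 6.35% of tested genes below it, and MCM4 the highest, with 31.1% below it. With siRNA 2, MCM5 was lowest, with 5.00% of genes below it. With siRNA 3, MCM6 was lowest, with 13.3% of genes below it. MCM5 and MCM4 lay above the middle on that array, with 54.2% and 60.4% below them.

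**Figure D3:**
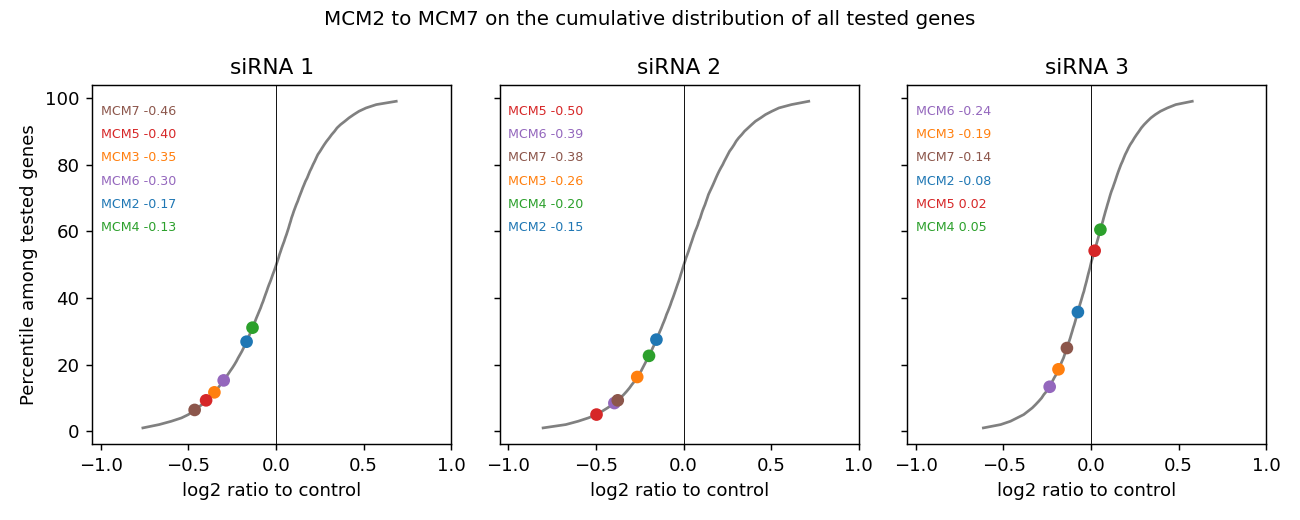
Cumulative distribution of the log2 ratio to control over all 10921 tested genes (grey line, 1 panel per siRNA), with the 6 helicase subunits as coloured points and their values listed in the same colours. With siRNAs 1 and 2 all points lie left of 0, and with siRNA 3 MCM5 and MCM4 lie right of 0.

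The stoichiometry of MCM2 to MCM7 can be read here only as a change relative to the control array. Signals of different probes depend on how each probe hybridises, so the levels of different subunits were not set against each other. A ratio of 1 subunit to another, taken relative to the same ratio on the control array, cancels a constant factor of each probe. It does not remove every probe effect, since probes of 1 gene also gave different ratios (below). The widest gap between subunits was 1.26-fold with siRNA 1 (MCM4 over MCM7), 1.27-fold with siRNA 2 (MCM2 over MCM5) and 1.22-fold with siRNA 3 (MCM4 over MCM6). Over the 3 siRNAs, the widest difference between fold changes on the log2 scale was 0.23, between MCM4 and MCM7.

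Of the 15 pairs of subunits, 7 shifted to the same side with all 3 siRNAs, with no test made. For comparison, of all 10921 tested genes, 2221 lay below and 2234 above the control with all 3 siRNAs. The 3 differences of a pair share 1 control array and the pairs share subunits, so the pairs below are a description only. MCM4 lay above MCM6 by 0.16, 0.20 and 0.29 on the log2 scale with siRNAs 1, 2 and 3. MCM4 likewise lay above MCM7 by 0.33, 0.18 and 0.19. MCM2 lay above MCM3 by 0.18, 0.11 and 0.11 and above MCM6 by 0.13, 0.24 and 0.16. MCM2 and MCM4, in contrast, differed by -0.03, 0.04 and -0.13, on both sides of 0. The pair of MCM6 and MCM7 differed by 0.17, -0.02 and -0.10. MCM5 moved most relative to the rest, from -0.18 against the median of the subunits with siRNA 2 to 0.13 with siRNA 3.

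For scale, different probes of the same gene also give different ratios. Over 2423 genes with at least 2 probes detected on all arrays, the ratios of the 2 brightest probes differed by a median of 0.15, 0.17 and 0.15 on the log2 scale with siRNAs 1, 2 and 3. In 5% of these genes the difference was above 0.49, 0.56 and 0.46. Each gene gives 1 pair of probes here. The widest gaps between subunits, 0.33, 0.34 and 0.29 on the log2 scale, are each the largest of 15 pairs. The median over genes is therefore not a like measure for them. The second MCM3 probe lay at -0.28, -0.71 and 0.03, a log2 fold change of -0.32 ± 0.28 (SE), and with siRNA 2 it stood 0.45 below the brighter probe. With siRNA 3 this second probe lay above MCM2, which was at -0.08, unlike the brighter MCM3 probe. The second MCM4 probe lay at -0.09, 0.07 and 0.26, a log2 fold change of 0.08 ± 0.22, on the other side of 0 from its brighter probe. For MCM7 the second probe stayed close to the brightest, at -0.46, -0.24 and -0.20, a log2 fold change of -0.30 ± 0.21. The third MCM7 probe was detected on 1 array, that of siRNA 2, and not on the control array, so no fold is given. With the mean of a gene's probes in place of the brightest, the widest difference between subunits was 0.30 in place of 0.23.

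**Figure D4:**
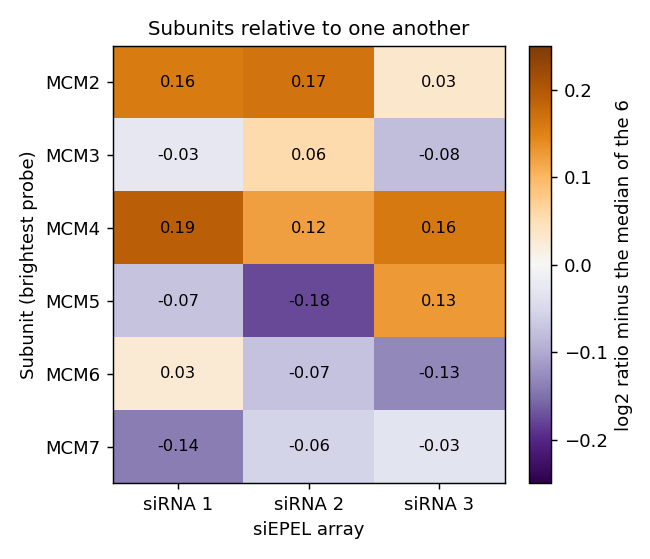
Log2 ratio to control of each helicase subunit (rows, brightest probe) minus the median of the 6 subunits on the same siEPEL array (columns), with the value in each cell and the colour scale in log2 units. MCM4 lies above the median of the subunits on all 3 arrays, at 0.19, 0.12 and 0.16, MCM7 lies below it on all 3, and MCM5 changes sign between siRNA 2 and siRNA 3.

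The relatives outside the ring lay on both sides of the control. MCM10, the activation factor, gave raw signals of 735 on the control array, against 505, 595 and 696 with siRNAs 1, 2 and 3. Its ratios to control were 0.696, 0.827 and 0.949 (log2 difference -0.29 ± 0.23, SE), and its dimmer probe gave -0.26 ± 0.26. Without siRNA 1 the brighter probe gave -0.17. Both MCM10 probes had their lowest level with siRNA 1 and lay below the control with every siRNA.

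MCM8, of the recombination helicase, lay on the high side by its brightest probe, with raw signals of 1820 on the control array, against 1818, 2250.5 and 2027 with the siRNAs. Its ratios were 1.02, 1.33 and 1.14 (log2 difference 0.21 ± 0.22, or 0.11 without siRNA 2). A second MCM8 probe gave ratios of 0.784, 1.09 and 1.11 (log2 difference -0.02 ± 0.25), and the probes disagreed most with siRNA 1. The third MCM8 probe was detected on 0 arrays. Both MCM9 probes were not well above background on any array, with raw signals of 76.1 to 87.3 for the brighter and 47.3 to 54.7 for the dimmer, and were not tested. HROB, which loads the MCM8 and MCM9 helicase, lay at 0.21, -0.04 and 0.20 on the log2 scale, a log2 fold change of 0.13 ± 0.21.

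MCMBP gave raw signals of 172 on the control array, against 191, 137 and 188 with siRNAs 1, 2 and 3. It was lowest with siRNA 2, at 0.727-fold, and above the control with siRNAs 1 and 3, at 1.18-fold and 1.11-fold. Its log2 fold change was -0.02 ± 0.29 and turned to 0.19 without siRNA 2. The spread of MCMBP among the siEPEL arrays, an SD of 0.38 on the log2 scale, was wider than that of 91.7% of tested probes, whereas the SD of MCM2, at 0.05, was wider than that of 6.38%.

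Genes that act with the helicase lay on both sides of the control, and 0 passed the test in either direction in any of the lists below. For loading, all 9 listed genes were tested, and their median ratio was -0.12, -0.14 and -0.08 on the log2 scale with siRNAs 1, 2 and 3. In 4 of 9 all 3 ratios were below the control, against 20.3% of all tested genes. The loaders CDC6, which recruits the ring to origins, and CDT1, which carries it there, were lowest in the list, at -0.45 ± 0.22 (SE) and -0.38 ± 0.23. CDC6 was dim, with raw signals of 118 on the control array, against 95.7, 88.7 and 104 with siRNAs 1, 2 and 3. CDT1 gave raw signals of 809 on the control array, against 636, 527 and 706 with the siRNAs. The origin recognition subunits ORC6 (0.02 ± 0.21) and ORC4 (0.34 ± 0.24) stood highest. ORC4 was detected on 3 of the 4 arrays and not on the control array, so its value is not a fold.

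Activation factors had medians close to those of the ring. Of 13 listed, 11 were tested, with medians of -0.37, -0.31 and -0.16. All 3 ratios were below the control in 7 of 11, against 20.3% of all tested genes. CDC45, the CMG partner of the ring, gave raw signals of 1339 on the control array, against 990, 984 and 966 with siRNAs 1, 2 and 3. The 3 siEPEL signals were almost equal, at 0.762-fold, 0.763-fold and 0.722-fold the control after normalization, and the log2 difference was -0.42 ± 0.20. TOPBP1, which recruits activation factors, was at -0.43 ± 0.24, with a ratio of 0.613 with siRNA 1. The GINS subunits tested, chosen for mention after their values were seen, also lay below the control with all 3 siRNAs, GINS2 at -0.29 ± 0.20, GINS3 at -0.19 ± 0.20 and GINS4 at -0.23 ± 0.21. GINS1 had 1 probe, not detected on any array. At the other end of the list, DONSON was at -0.10 ± 0.31 and TICRR at 0.06 ± 0.27.

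At the fork, 21 of 22 listed genes were tested, with medians of -0.33, -0.16 and -0.07. All 3 ratios were below the control in 9 of 21, against 20.3% of all tested genes. FEN1, the flap endonuclease of lagging strand synthesis, was at -0.41 ± 0.20 (SE) and POLE2, a subunit of the leading strand polymerase, at -0.37 ± 0.20. The sliding clamp gene PCNA stood at 0.01 ± 0.21 and the primase subunit gene PRIM2 at 0.35 ± 0.31. PRIM2 was dim, with raw signals of 109 on the control array, against 103, 155 and 129 with the siRNAs. Helicase unloading factors (5 of 6 tested) had medians of -0.01, -0.18 and -0.10. TRAIP, a ubiquitin ligase of the replisome, was at -0.39 ± 0.24 and the segregase gene VCP at -0.27 ± 0.23. The TRAIP probe was dim, with raw signals of 136 on the control array, against 107, 104 and 128 with the siRNAs. CUL2 (-0.01 ± 0.21) and LRR1 (0.09 ± 0.21), parts of the ligase that marks MCM7 at termination, stood highest in the list. An SE of this size does not show that they equalled the control.

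All 8 listed markers of cycling cells outside replication were tested, with medians of -0.51, -0.17 and -0.12 with siRNAs 1, 2 and 3. Below the control with all 3 siRNAs lay 5 of 8, against 20.3% of all tested genes. CCNA2 was at -0.35 ± 0.26 (SE), AURKA at -0.34 ± 0.22, CCNB1 at -0.19 ± 0.27 and BUB1 at -0.16 ± 0.27. On these bulk arrays fewer cycling cells and less RNA per cell cannot be told apart, and the part of the cycling fraction in the MCM values was not tested. Reference genes (8 of 10 tested) had medians of 0.05, 0.07 and 0.09, and with all 3 siRNAs 3 lay below the control and 3 above it. GUSB was at -0.20 ± 0.21, ACTB at -0.19 ± 0.21, B2M at 0.26 ± 0.23 and PPIA at 0.26 ± 0.22. Single reference genes therefore lay as far from the control as some MCM subunits did. HPRT1, chosen for mention after its values were seen, was at 0.622-fold with siRNA 1, lower than every helicase subunit on that array. With siRNAs 2 and 3 it was at 1.14-fold and 1.15-fold.

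**Figure D5:**
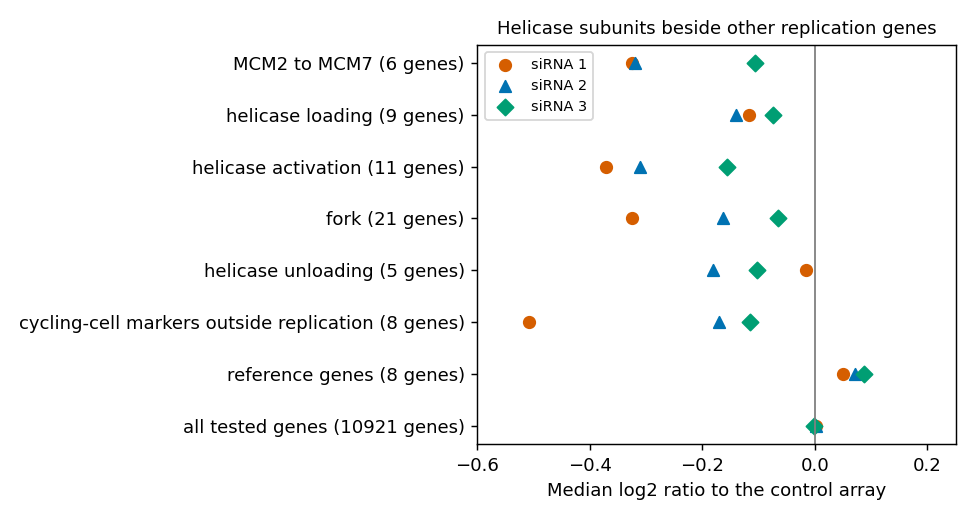
Median log2 ratio to the control array of each gene list (rows, with the number of tested genes), 1 marker per siRNA and no error bars. MCM2 to MCM7 lie at -0.33, -0.32 and -0.11, and the activation factors at -0.37, -0.31 and -0.16. The reference genes lie slightly above 0. All tested genes lie at 0.00, since quantile normalization holds their median near 0.

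The genes whose ratios were most like the median profile of MCM2 to MCM7 were sought among 9769 genes detected on all 4 arrays, by the largest distance on the log2 scale over the 3 siRNAs. They were PRPS2, a phosphoribosyl pyrophosphate synthetase gene, CHPT1, a phospholipid synthesis gene, CEP162, SHPK and ZNF784, at distances of 0.03 to 0.04. PRPS2 stood at -0.34, -0.29 and -0.08. The subunits were themselves 0.08 (MCM3) to 0.19 (MCM4) away. Closer to the profile lay 46 genes for MCM3, 215 for MCM6 and 254 for MCM7. For MCM2, MCM5 and MCM4 they numbered 411, 513 and 648.

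The arrays as a whole were alike in depth of detection, with 35.0% to 36.2% of probes detected above the negative control beads. Of 7 markers typical of epithelial and A549 cells, 6 were detected on all arrays, among them KRT8, EPCAM and NQO1, while the single AKR1C1 probe was not detected on any. Their summed raw signal was 43835 on the control array, against 35958 to 41459 on the siEPEL arrays. Of 9 markers of blood, endothelial and fibroblast cells, 8 had a probe. PTPRC, CD3E, PECAM1, CDH5 and DCN were not detected on any array. CD14 and LUM were detected on all 4 arrays and COL1A1 on 2. The summed raw signal of that list was 916 on the control array, against 888 to 995 on the siEPEL arrays. The microRNA genes MIR106B, MIR93 and MIR25, which RefSeq places within the span of MCM7, each had 1 probe, detected on 0 arrays.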

How the data were processed

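The intensities that the authors deposited are raw mean bead signals per probe, linear and not normalized. Per the submitters' processing notes, BeadStudio was used (version not given). The deposited table also holds a detection p-value for each signal. A second table of intensities, processed by the authors in a way not given in the sources used here, has the same maximum on all 4 arrays and served as an alternative.

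From the raw signal, log2 levels were made with neqc (limma 3.58.1, R 4.3.3), which subtracts background by normexp on the basis of the detection p-values, adds an offset (16 here) and applies quantile normalization. The offset understates changes of dim probes. A probe was tested if its detection p was below 0.01 on any array, which left 18200 probes of 10921 genes, each gene taken by its brightest probe, and kept 15 of 18 member probes and 9 of 10 member genes. The 3 siEPEL arrays were compared with the 1 control array by lmFit and eBayes (2-sided, Benjamini-Hochberg over all tested probes, threshold 0.05, 2 residual and 6.83 prior degrees of freedom). The fit was tested on simulated data. The number of arrays limits the precision, with a median SE of 0.22 on the log2 scale.

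Gene names came from the platform annotation, updated through RefSeq (0 symbols changed), and 30113 probes carry 1 gene, 8 carry several and 17107 are unnamed here. The members and lists were chosen with earlier results of these data known. Named by rule were all members, the 2 highest and 2 lowest genes of each list, and the 5 genes most like the helicase profile. The GINS subunits and HPRT1 were added after their values were seen. Promoter letters were searched with Python 3.11.15. Alternatives changed the background correction, normalization, offset, detection filter, probe choice, variance prior, threshold and siRNAs included.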

Additional observations from a re-analysis of the deposited data

How the results depend on the processing

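Across 156 recomputed values, 152 were scored as kept, 2 moved beyond the spread between siRNAs and 2 reversed. Fold changes of single genes were scored on their sign alone and counts by a fixed factor of the main count. The summaries of MCM2 to MCM7 were scored by sign and by the SD over siRNAs. Part of these values could not change. The detection filter settings left the members' fold changes as they were, and averaging probes did so for genes with 1 tested probe. The authors' processed table gave almost the main values. The number of MCM family probes called by limma was 0 under every alternative tried, as was the number over all probes, where an unadjusted p under 0.05 held for 216 to 1863 probes. The 1863 came without the detection filter, with all 47228 probes tested, against 382 of the 18200 probes tested in the main run. The mean of the MCM2 to MCM7 medians lay between -0.30 (median scaling) and -0.22 (mean of a gene's probes) over the processing alternatives, and between -0.32 and -0.21 when 1 siRNA was left out. The widest difference between subunits, 0.23 on the log2 scale, became 0.30 with the mean of a gene's probes, where the second MCM4 probe is averaged in, and 0.24 to 0.29 when 1 siRNA was left out. With siRNA 3 left out the extremes were MCM2 and MCM5 in place of MCM4 and MCM7. They were MCM4 and MCM6 with cyclic loess, with the mean of a gene's probes and with siRNA 1 left out. Genes of the family below the control with every siRNA numbered 5 under the processing alternatives and 5 to 7 when 1 siRNA was left out, where 2 ratios have to lie below the control and 29.9% to 30.5% of all genes do so, against 20.3% with all siRNAs. The log2 fold change of MCMBP reversed with median scaling (0.0027) and without siRNA 2 (range -0.16 to 0.19 when 1 siRNA was left out), and the cause was not tested. No paired analysis was possible because the control group has a single array. Only 1 control array was available here, so its own variation is not measured.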
